A study of Mus musculus with 6 samples.

Results

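Complement components and regulators were followed in the mouse hepatoma cell line Hepa1-6 after knockdown of Crebl2, which encodes a small bZIP protein. The set comprises 9 named genes, C3, C4b, C2, Cfb, Cfi, C1s1, Masp1, Serping1 and Cd55, out of 38828 features left when the deposited transcript counts were summed by gene. Sequencing of total RNA covered 3 libraries of cells given siRNA against Crebl2 and 3 of cells given siRNA against Renilla luciferase (Luc siRNA), which has no target in mouse cells. All cells were taken from the same line, transfected with Lipofectamine RNAiMAX for 3 days and grown with 4.5 g/L glucose and 10% FBS. The labels do not say how many siRNAs were used or whether replicates are independent cultures, so the p-values below cover the spread between these libraries, which may be technical.

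Complement is a protease cascade of blood plasma, much of it secreted by hepatocytes. Antibody-bound C1q starts the classical arm and sugar-binding lectins start the lectin arm; both lead to cleavage of C4 and C2, while factor B builds the convertase of the alternative arm. All arms meet at C3, whose fragments coat targets, and regulators such as factor I, C1 inhibitor and CD55 restrain the cascade.

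Total counts per library were 27082572 to 29158489. Crebl2 itself averaged 30.4 ± 1.69 CPM (counts scaled to a common library size, with library sizes adjusted by the TMM method) in Crebl2 siRNA libraries and 113 ± 0.858 CPM in Luc siRNA libraries (SD, n = 3 each), so the labels and the targeted transcript go together. The share of mitochondrial counts was 0.859% in Crebl2 siRNA replicate 2 and 2.09% to 2.52% in the other libraries. Of the hepatocyte markers, Alb averaged 539.7 ± 29.5 CPM in Crebl2 siRNA libraries and 581 ± 29.2 CPM in Luc siRNA libraries, and 4 of 20 (Apoa2, Serpina1a, Serpina1b and Hnf4a) were at 0 counts, where Hnf4a has 6 and Apoa2 45 bases that reads could be counted on. The summed level of the 20 was 1078 to 1159 CPM in Crebl2 siRNA libraries and 1139 to 1222 CPM in Luc siRNA libraries. Of 12 macrophage markers, Ptprc, Itgam and Marco were at 0; the list summed to 23.9 to 28.3 CPM in Crebl2 siRNA libraries and 37.9 to 40.6 CPM in Luc siRNA libraries, with Cd14 giving 90.5% to 92.5% of it. Of the macrophage markers, 4 were tested: Cd14 (log2 fold change -0.61) and Lyz2 (-0.84) were called lower (edgeR) and 2 were not called. The 8 endothelial markers summed to 33.3 to 37.4 CPM in Crebl2 siRNA libraries and 19.8 to 23.1 CPM in Luc siRNA libraries. Of these 8, 7 held under 60 counts. The remaining one, Vwf, averaged 35.4 CPM in Crebl2 siRNA cells and 21.5 CPM in Luc siRNA cells. The 10 stellate cell and fibroblast markers summed to 178 to 197 CPM in Crebl2 siRNA libraries and 224 to 236 CPM in Luc siRNA libraries. Of these 10, 7 held under 60 counts, Col1a1 was not called, Dcn was called lower and Des higher (edgeR): Dcn averaged 117 CPM in Crebl2 siRNA cells and 171 CPM in Luc siRNA cells, and Des 62.4 CPM in Crebl2 siRNA cells and 49.1 CPM in Luc siRNA cells. The part of these marker differences in the complement results was not tested. All libraries are of the Hepa1-6 line, so the lists describe RNA of that line. Bulk libraries do not tell fewer cells expressing a gene from less RNA per cell.

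Not every complement gene could be read. The deposited counts are given per transcript, and reads shared by several transcripts were apparently not counted, because the 9603 transcripts without any base of their own held 0.0235% of the counts. A gene is therefore seen only through bases that belong to 1 deposited transcript (its own bases). C3, C4b, Cfi and Masp1 were counted over their whole transcripts of 5136, 5379, 2079 and 5345 bases. C2 was counted over 245 own bases, Serping1 over 589, C1s1 over 109 and Cfb over 9. Of the 9 genes, 5 held enough counts to be tested (C3, C4b, C2, Masp1 and Cfi), 3 fell below the count filter with some counts, and Cfb was at 0 in every library.

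**Figure D1:**
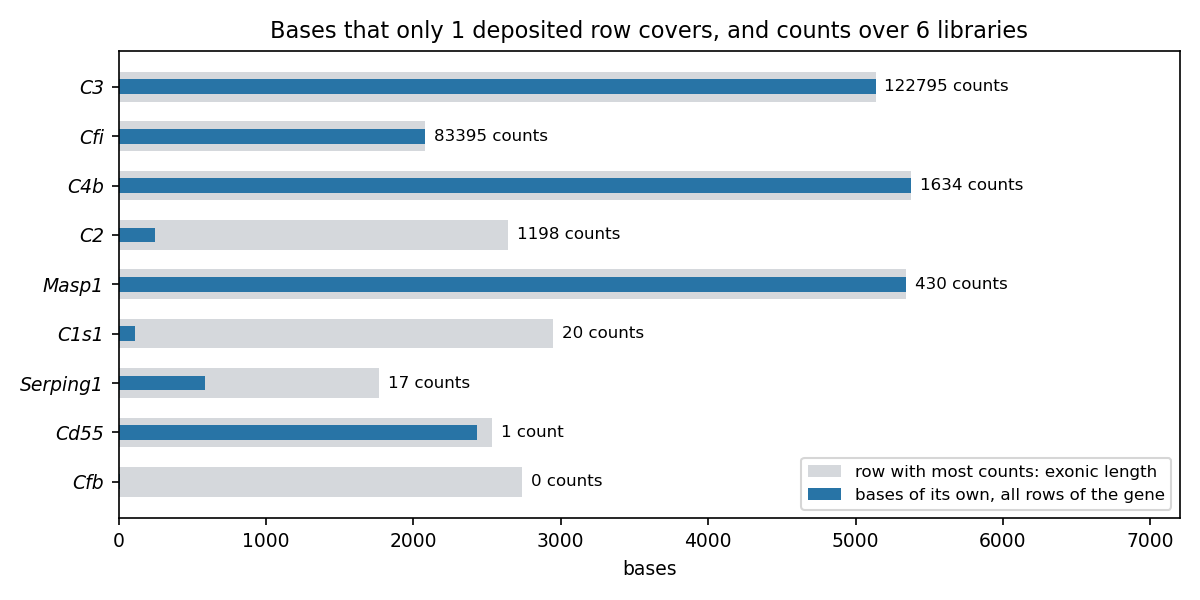
Exonic length of the transcript with most counts (grey) and bases covered by only 1 deposited transcript (blue) for each of the 9 genes, in bases, with the counts summed over the 6 libraries. Cfb, C1s1 and C2 have few bases of their own, while Cd55 has 2431 own bases and 1 count.

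The RNA of C3, C2, C4b and Masp1 was lower in Crebl2 siRNA cells, and that of Cfi slightly higher. By edgeR's quasi-likelihood test with Benjamini-Hochberg adjustment over 11616 genes (called at an adjusted p under 0.05), 4 of the 5 tested members were lower and 1 was higher, in a comparison where 38.9% of all tested genes were called, 20.1% lower and 18.8% higher. A drop of at least 2-fold was seen for 3 members, and for 1.83% of all tested genes; a rise of that size was seen for 0 members and for 2.03% of all tested genes. The Crebl2 siRNA and Luc siRNA libraries did not overlap for any of the 5, which was also so for 48.8% of all tested genes. The median log2 fold change was -1.08 over these 5 and 0.005 over all tested genes. The members were chosen with earlier results of these data known, so these counts describe them and do not set them apart.

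**Figure D2:**
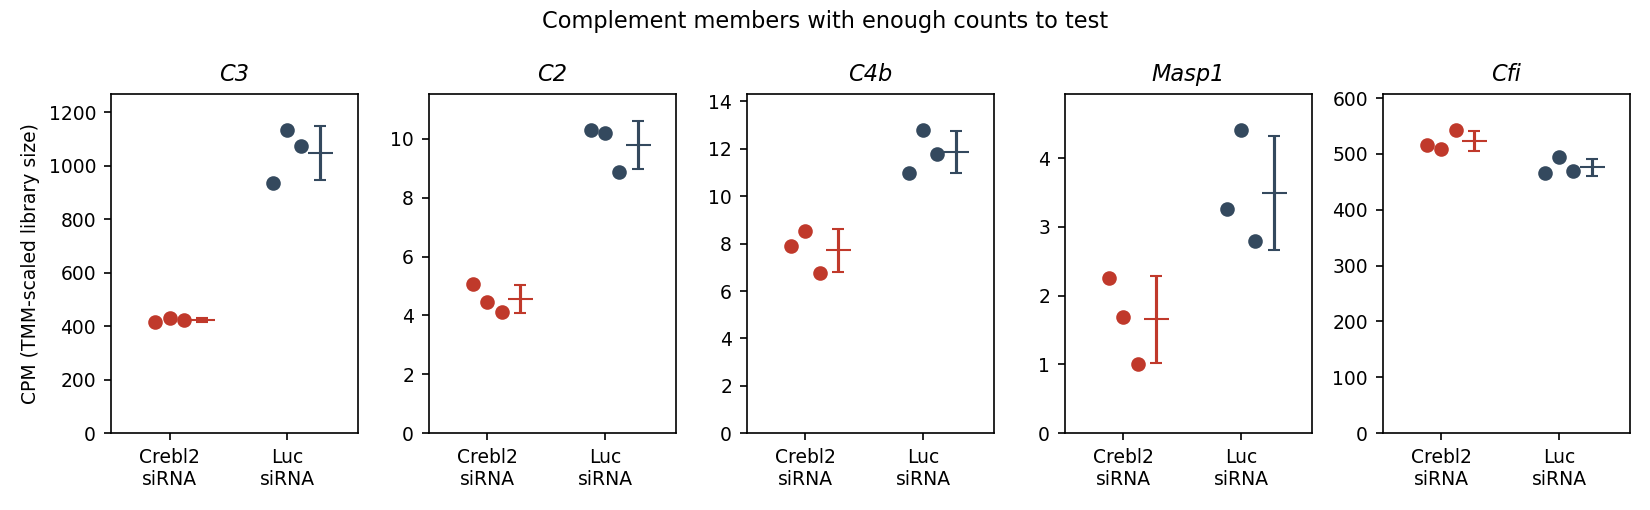
CPM of the 5 tested members in each library, one dot per library, with the mean and SD (n = 3) beside the dots; each panel has its own linear axis from 0. C3, C2, C4b and Masp1 are lower in all 3 Crebl2 siRNA libraries than in any Luc siRNA library, and Cfi is slightly higher.

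C3, the protein on which all arms converge, was the member with most counts. The gene lies on chr17:57203970-57228136 (GRCm38, minus strand; Ensembl gene ENSMUSG00000024164). Its counts were 11556, 11991 and 11761 in Crebl2 siRNA libraries and 26731, 31646 and 29110 in Luc siRNA libraries. The Crebl2 siRNA libraries lay close together and all below the lowest Luc siRNA library. In CPM, C3 averaged 423 ± 9.13 in Crebl2 siRNA cells, which was 40.4% of the 1048 ± 101 in Luc siRNA cells (SD, n = 3 each). The log2 fold change was -1.31, with a standard error (SE) of 0.0611 and a 95% interval of -1.44 to -1.18 (edgeR quasi-likelihood test, adjusted p = 2.27e-10).

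The 250 bases before the C3 start in RefSeq (chr17:57228137-57228386, GRCm38.p6, minus strand) are shown because C3 had the most counts and the largest estimated drop of the 5, and because C/EBP factors, among them the acute-phase factor C/EBPβ, are known regulators of this promoter. Capitals mark the match to TTGCNNAA, a C/EBP-type word, which begins 45 bases before the start.
C3: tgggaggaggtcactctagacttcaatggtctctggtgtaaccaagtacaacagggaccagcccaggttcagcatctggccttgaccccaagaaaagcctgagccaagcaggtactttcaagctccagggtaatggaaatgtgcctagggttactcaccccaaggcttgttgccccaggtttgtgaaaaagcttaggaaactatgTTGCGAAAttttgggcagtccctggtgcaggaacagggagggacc
On either strand this word occurs in 10.8% of 32851 RefSeq promoter windows of 300 bases, which run from 250 before to 50 after a start. The RNA of Cebpb, the gene of C/EBPβ, averaged 62.4 ± 1.25 CPM in Crebl2 siRNA cells and 85.6 ± 2.78 CPM in Luc siRNA cells (SD, n = 3 each), a log2 fold change of -0.46 (SE 0.0535, edgeR quasi-likelihood test, adjusted p = 4.95e-06). Cebpd, another C/EBP gene, was called higher by the same test, at 9.43 CPM in Crebl2 siRNA cells and 7.68 CPM in Luc siRNA cells (0.30, adjusted p = 0.0252). Cebpa was not called (0.25, adjusted p = 0.524). Neither binding nor promoter activity was measured, and a word match is not a site. The part of these C/EBP genes in the C3 result was not tested.

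C2 and C4b together form the classical and lectin C3 convertase. C2, the protease part, lies on chr17:34862604-34898265 (minus strand; ENSMUSG00000024371). It had 5.05, 4.47 and 4.11 CPM in Crebl2 siRNA libraries and 10.3, 10.2 and 8.86 CPM in Luc siRNA libraries. Every Crebl2 siRNA library was below every Luc siRNA library, and the mean was 46.4% of that in Luc siRNA cells. The log2 fold change was -1.11 (SE 0.116, 95% interval -1.35 to -0.86, edgeR quasi-likelihood test, adjusted p = 1.47e-06). These values rest on 1198 counts over 1 transcript, C2-201, of whose 2641 bases 244 are its own.

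C4b, the part of the convertase that binds covalently to targets, lies on chr17:34728380-34743882 (minus strand; ENSMUSG00000073418). It had 7.88, 8.54 and 6.74 CPM in Crebl2 siRNA libraries and 11, 12.8 and 11.8 CPM in Luc siRNA libraries. Again the groups did not overlap, and the Crebl2 siRNA mean was 65.1% of the Luc siRNA mean. The log2 fold change was -0.62 (SE 0.107, 95% interval -0.84 to -0.39, edgeR quasi-likelihood test, adjusted p = 0.000226).

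C4a is a near copy of C4b in the same region, and the counted transcripts are identical at 95.9% of aligned positions, so reads may have been dropped from or exchanged between them. C4a averaged 1.94 ± 0.306 CPM in Crebl2 siRNA cells and 1.95 ± 0.587 CPM in Luc siRNA cells (SD, n = 3 each), a log2 fold change of 0.00 with a 95% interval of -0.48 to 0.47 (edgeR quasi-likelihood test, adjusted p = 0.999). The ratio of C4b to C4a CPM was 3.44 to 4.94 in Crebl2 siRNA libraries and 4.83 to 8.46 in Luc siRNA libraries, ranges that overlap. The difference of the log2 ratio between groups was -0.66 (exact two-sided permutation test, p = 0.2, with 0.1 the smallest p that 3 against 3 allows). With that limit the test could not reach 0.05, so it cannot decide whether the near copies changed unequally.

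C1s1, a serine protease that C1r activates and that cleaves C4 and C2, could not be tested. The gene (chr6:124530345-124542359, minus strand; ENSMUSG00000038521) had 5, 0 and 2 counts in Crebl2 siRNA libraries and 4, 2 and 7 counts in Luc siRNA libraries. The groups overlapped, and the ratio of summed counts was 0.539 with an exact 95% interval, for counting error only, of 0.182 to 1.45. Its relatives in the same cluster on chromosome 6 were readable: C1s2 is 86.6% identical to C1s1 over the aligned transcripts, and C1ra and C1rb encode the partner protease C1r.

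Within this cluster C1s2 and C1rb were lower in Crebl2 siRNA cells. C1s2 had 18.3, 19.7 and 19.9 CPM in Crebl2 siRNA libraries and 33.3, 34.0 and 35.6 CPM in Luc siRNA libraries, without overlap (log2 fold change -0.83, SE 0.069, edgeR quasi-likelihood test, adjusted p = 1.14e-07). C1rb had 22.4, 18.8 and 19.7 CPM in Crebl2 siRNA libraries and 28.2, 32.7 and 34.2 CPM in Luc siRNA libraries, also without overlap (-0.64, SE 0.0857, adjusted p = 1.83e-05). C1ra, whose transcript is 79.8% identical to that of C1rb, and C1rl, a C1r-like protease gene, were not called. C1ra averaged 133 ± 5.53 CPM in Crebl2 siRNA cells and 139 ± 7.65 CPM in Luc siRNA cells, with a 95% interval of -0.18 to 0.05 on the log2 scale. C1rl averaged 76.8 ± 1.40 CPM in Crebl2 siRNA cells and 76.5 ± 3.64 CPM in Luc siRNA cells, with an interval of -0.11 to 0.12.

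The ratio of C1rb to C1ra CPM within each library was 0.161, 0.146 and 0.151 in Crebl2 siRNA cells and 0.217, 0.226 and 0.241 in Luc siRNA cells. The groups are apart, at a log2 difference of -0.58, where the exact two-sided permutation test gives p = 0.1, the smallest possible here (0.14 after Benjamini-Hochberg adjustment over the 7 ratios computed, whose pairs were chosen after values were seen). The ratio of C1s2 to C1ra was apart too, with a log2 difference of -0.76 and the same p of 0.1 by the exact test.

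**Figure D3:**
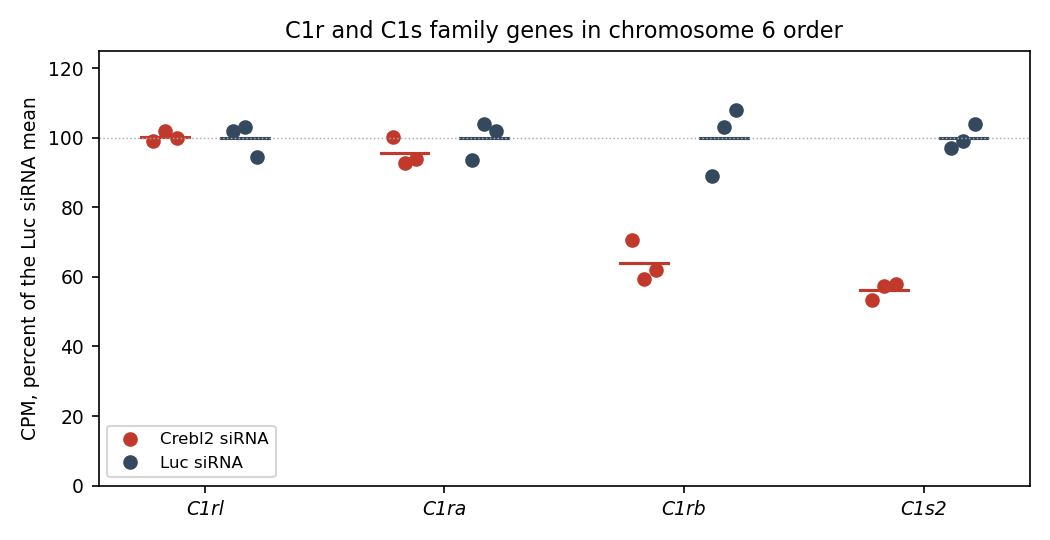
CPM of the readable C1r and C1s family genes in each library, as a percent of the gene's Luc siRNA mean, in the order of the genes on chromosome 6; lines are group means, and C1s1, which lies between C1ra and C1rb, is left out for its low counts. C1rb lies at 59.3% to 70.6% and C1s2 at 53.4% to 58.1% in Crebl2 siRNA libraries, while C1ra and C1rl overlap the Luc siRNA libraries.

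C1ra and C1rb share a stretch of 25 bases near their starts, shown because one gene was called and the other was not. Capitals mark a C/EBP-type word (TTGCNNAA, here read on the other strand) and TTCNNNGAA, a STAT-type word. The stretches are chr6:124512637-124512661 for C1ra and chr6:124570295-124570319 for C1rb, both on the plus strand of GRCm38.p6.
C1ra: TTATGCAAatgcttcaTTCCCTGAA
C1rb: TTATGCAAatgcttcaTTCCCTGAA
The letters are identical, and the best local alignment of the RefSeq windows matches at 139 of 150 positions. The stretch begins 16 bases after the RefSeq start in C1ra and 135 bases before it in C1rb. From the GENCODE starts of the counted transcripts it begins 232 bases after the start in C1ra and 1 base after it in C1rb, so the annotations differ on the starts. STAT-type words lie in 8.3% of the RefSeq windows. Among the tested complement genes with a window, a C/EBP-type word was found in 2 of 4 genes called lower, 0 of 3 called higher and 3 of 7 not called.

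Masp1, a protease that circulates with the lectins, lies on chr16:23449417-23520815 (minus strand; ENSMUSG00000022887). It had 63, 47 and 28 counts in Crebl2 siRNA libraries and 93, 123 and 76 counts in Luc siRNA libraries. The highest Crebl2 siRNA library was below the lowest Luc siRNA library, although both groups were scattered at these low counts. The log2 fold change was -1.08 (SE 0.235, 95% interval -1.57 to -0.58, edgeR quasi-likelihood test, adjusted p = 0.00165).

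The lectins that recruit Masp1 gave few counts. Colec10, a collectin of the liver, averaged 0.492 ± 0.105 CPM in Crebl2 siRNA cells and 2.18 ± 0.489 CPM in Luc siRNA cells (SD, n = 3 each). It held 41 counts in all 3 Crebl2 siRNA libraries and 183 in the Luc siRNA libraries, a ratio of 0.224 (exact 95% interval 0.156 to 0.316), and was called lower with a log2 fold change of -2.14 (edgeR quasi-likelihood test, adjusted p = 7.08e-06). The other lectin pathway genes, Mbl1, Mbl2, Fcna, Fcnb, Colec11 and Masp2, were below the filter.

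In the alternative arm, Cfb, the gene of factor B, could not be read. It lies 86 bases from C2 (chr17:34856374-34862518, minus strand; ENSMUSG00000090231), its 4 deposited transcripts have 9 bases of their own in all, and the spanning model Gm20547 covers the same place. A count of 0 there says nothing about its RNA. Properdin (Cfp), which stabilises the alternative convertase, had 6.62, 7.17 and 5.37 CPM in Crebl2 siRNA libraries and 3.82, 4.66 and 4.65 CPM in Luc siRNA libraries. All Crebl2 siRNA libraries were above the Luc siRNA libraries, and the log2 fold change was 0.55 (SE 0.136, edgeR quasi-likelihood test, adjusted p = 0.00427).

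Among the regulators, Cfi encodes factor I, the protease that degrades C3b and C4b with the help of cofactors. It lies on chr3:129835884-129875332 (plus strand; ENSMUSG00000058952). Cfi had 516, 509 and 543 CPM in Crebl2 siRNA libraries and 466, 494 and 469 CPM in Luc siRNA libraries. The groups did not overlap but lay close, with means of 523 ± 17.7 CPM in Crebl2 siRNA cells and 476 ± 15.5 CPM in Luc siRNA cells (SD, n = 3 each). The log2 fold change was 0.13 (SE 0.0477, 95% interval 0.03 to 0.23, edgeR quasi-likelihood test, adjusted p = 0.0348). The call was lost with adjusted p = 0.0671 when no count filter was applied, and with 0.112, 0.148 and 0.0684 when Luc siRNA replicate 1, Luc siRNA replicate 3 or Crebl2 siRNA replicate 3 was left out (same edgeR test).

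C3 fell relative to Cfi, with log2 fold changes of -1.31 for C3 and 0.13 for Cfi, whose call was lost in some fits as given above. The C3 to Cfi ratio of CPM was 0.801, 0.849 and 0.782 in Crebl2 siRNA libraries and 2.01, 2.30 and 2.29 in Luc siRNA libraries. Every Crebl2 siRNA ratio was below every Luc siRNA ratio. Being a ratio within each library, this does not depend on how libraries are scaled; the log2 difference was -1.44 (exact two-sided permutation test, p = 0.1, the smallest possible; 0.14 after Benjamini-Hochberg adjustment over the 7 ratios). Set per kilobase of own bases, so that genes can be ranked, Cfi was at 251 ± 8.49 and C3 at 82.4 ± 1.78 CPM per kilobase in Crebl2 siRNA cells. In Luc siRNA cells Cfi was at 229 ± 7.44 and C3 at 204 ± 19.6 CPM per kilobase, with SDs that overlap. C2 followed with 18.5 ± 1.93 CPM per kilobase in Crebl2 siRNA cells and 40.0 ± 3.32 in Luc siRNA cells, then C4b with 1.43 ± 0.169 and 2.20 ± 0.173 for the same groups. Masp1 was lowest of the 5, at 0.309 ± 0.117 CPM per kilobase in Crebl2 siRNA cells and 0.653 ± 0.155 in Luc siRNA cells. The order of the other members was the same in both groups, and below Cfi and C3 each step was larger than the SDs. The SDs cover only the spread between libraries. The place of C2 above C4b also rests on dividing C2 by 245 own bases and C4b by 5379, and the error of these lengths was not measured.

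Serping1 encodes C1 inhibitor, the serpin that blocks C1r, C1s and the MASP proteases (chr2:84765387-84775444, minus strand; ENSMUSG00000023224). It had 2, 4 and 1 counts in Crebl2 siRNA libraries and 1, 3 and 6 counts in Luc siRNA libraries. The groups overlapped, and the ratio of summed counts was 0.701 with an exact 95% interval of 0.226 to 2.04. Cd55 encodes decay-accelerating factor, a membrane protein that takes convertases apart (chr1:130439027-130462744, minus strand; ENSMUSG00000026399). It had 0 counts in the Crebl2 siRNA libraries and 1 count in Luc siRNA replicate 1, with 0 in the other Luc siRNA libraries. With 2431 own bases, Cd55 was near the limit of detection: a count of 0 allows up to 3 counts, or 0.111 CPM in the library where that limit is highest.

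The cofactors and other fluid-phase regulators did not move one way. C4bp, the C4b-binding cofactor of factor I, had 29.7, 27.3 and 31.3 CPM in Crebl2 siRNA libraries and 53.8, 51.5 and 61.2 CPM in Luc siRNA libraries (log2 fold change -0.92, SE 0.0746, edgeR quasi-likelihood test, adjusted p = 8.80e-08). Clusterin (Clu), a secreted chaperone that blocks the terminal complex, had 2368, 2248 and 2188 CPM in Crebl2 siRNA libraries and 4090, 4845 and 4702 CPM in Luc siRNA libraries (-1.0, SE 0.06, adjusted p = 2.70e-09). Both genes were lower in every Crebl2 siRNA library than in any Luc siRNA library. Cpn1, the catalytic chain of carboxypeptidase N, which trims the C3a and C5a peptides, averaged 321 ± 13.8 CPM in Crebl2 siRNA cells and 284 ± 9.70 CPM in Luc siRNA cells, a small rise of 0.18 (SE 0.0499, adjusted p = 0.00949).

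Across the wider complement list of 59 genes, the 9 included, 23 could be tested, 10 were called lower, 4 higher and 9 neither, beside 20.1% lower and 18.8% higher over all tested genes. Without the 9, 18 of 50 were tested, 6 were lower, 3 higher and 9 not called, and their median log2 fold change was -0.06. The lower genes beyond those named above included Cd93, a C-type lectin once described as a C1q receptor, which held 56 counts in Crebl2 siRNA libraries and 101 in Luc siRNA libraries (log2 fold change -0.85, SE 0.273, edgeR quasi-likelihood test, adjusted p = 0.0212). That call was lost in DESeq2 (adjusted p = 0.0573), and in edgeR without Luc siRNA replicate 2 (adjusted p = 0.0632) or 3 (0.106) or without Crebl2 siRNA replicate 1 (0.0633) or 2 (0.069). C1qbp, a mainly mitochondrial protein that binds the heads of C1q, averaged 614 ± 15.5 CPM in Crebl2 siRNA cells and 514 ± 18.7 CPM in Luc siRNA cells (0.26, SE 0.0473, adjusted p = 0.000431).

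Beside C1ra, C1rl and C4a above, the genes not called were C8g, C9, Cd46, Cr1l, C3ar1 and Itgb2, with intervals of differing width. On the log2 scale the 95% interval was -0.33 to 0.39 for C8g and -0.97 to 0.10 for C9, both of the membrane attack complex. It was -0.42 to 0.31 for the membrane cofactor protein Cd46, -0.22 to 0.21 for its rodent relative Cr1l and -0.98 to 0.08 for the C3a receptor C3ar1. The 3 C1q chain genes, which macrophages rather than hepatocytes express, were at 0 counts in all libraries, with 1040 to 1203 own bases each. In all, 20 genes of the list were at 0, and 29 of the 35 below the filter had at least 200 own bases.

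**Figure D4:**
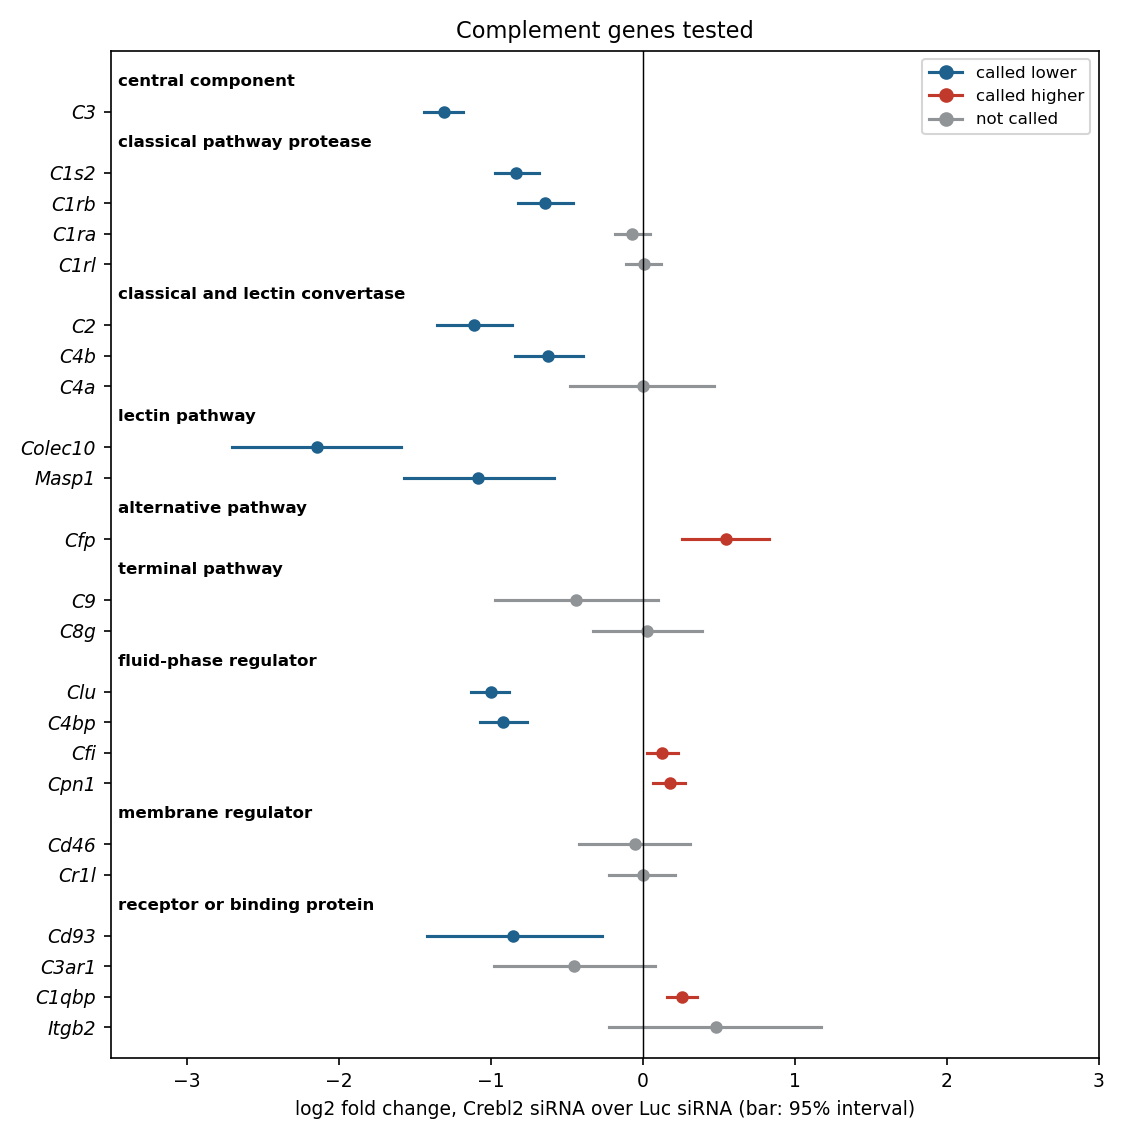
Log2 fold change, Crebl2 siRNA over Luc siRNA, of the 23 tested complement genes, grouped by role; dots are estimates and bars 95% intervals, coloured by call at an adjusted p under 0.05. C3, C2, C4b, Masp1, Colec10, C1rb, C1s2, C4bp, Clu and Cd93 were called lower and Cfi, Cpn1, Cfp and C1qbp higher.

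Receptors and factors through which inflammatory signals are known to act on complement genes were mixed. Of 31 listed, 25 were tested, 13 were lower and 4 higher, with a median log2 fold change of -0.18; over all tested genes 20.1% were lower and 18.8% higher. The called genes with the smallest p included Nfkbie, an inhibitor of NF-κB, at 76.1 ± 3.21 CPM in Crebl2 siRNA cells and 138 ± 8.27 CPM in Luc siRNA cells (log2 fold change -0.85, edgeR quasi-likelihood test, adjusted p = 1.05e-08). Nfkb1, a subunit of NF-κB itself, was at 23.9 ± 2.42 CPM in Crebl2 siRNA cells and 34.9 ± 0.746 CPM in Luc siRNA cells (-0.55, adjusted p = 2.34e-05). Receptor genes moved both ways. Osmr, for oncostatin M, changed by -0.65 (adjusted p = 1.47e-05) and Ifngr1, for interferon gamma, by -0.41 (adjusted p = 6.14e-06). Il6ra, the receptor chain for interleukin 6, a main inducer of acute-phase genes, was higher: it had 30.1, 34.1 and 34.5 CPM in Crebl2 siRNA libraries and 19.8, 20.2 and 20.6 CPM in Luc siRNA libraries (0.70, SE 0.0727, adjusted p = 1.22e-06). Il6st and Socs3, also on this list, were lower by the same test (-0.32, adjusted p = 0.000802, and -0.23, adjusted p = 0.00407). Stat3 held 14 counts in all and was below the filter.

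Coagulation and fibrinolysis proteins, another group of secreted proteases and inhibitors made largely by liver, give a setting for these counts. Of 33 listed, 11 were tested, 4 were lower and 3 higher, with a median log2 fold change of -0.12, beside the same 20.1% lower and 18.8% higher over all tested genes; a difference between this list and the complement list was not tested. Fgb, a fibrinogen chain, averaged 17.0 ± 0.862 CPM in Crebl2 siRNA cells and 45.1 ± 2.43 CPM in Luc siRNA cells (edgeR quasi-likelihood test, adjusted p = 4.45e-10). Pros1, whose product protein S also binds C4b-binding protein, changed by -0.70, the protein C receptor Procr by -0.49, and tissue factor F3 by -0.65. Vwf, the von Willebrand factor gene, changed by 0.72 and Klkb1, the gene of plasma prekallikrein, by 0.83.

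**Figure D5:**
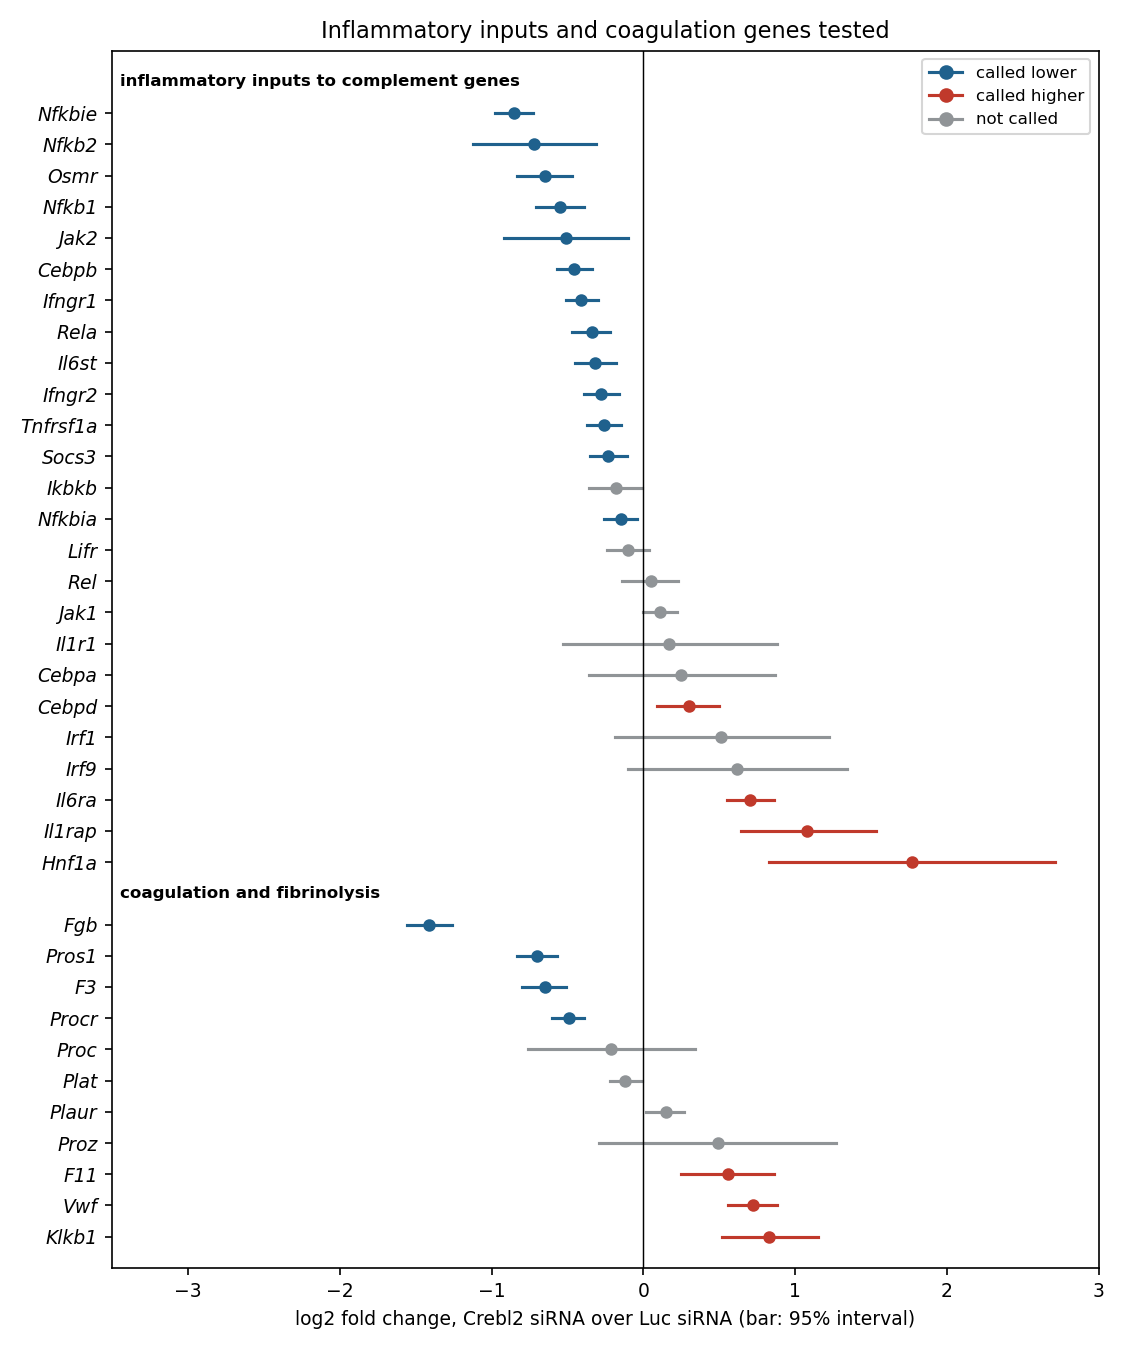
Log2 fold change, Crebl2 siRNA over Luc siRNA, of the tested inflammatory input genes (upper block) and coagulation and fibrinolysis genes (lower block); dots are estimates, bars 95% intervals and colours the call at an adjusted p under 0.05. Of the inputs 13 are lower and 4 higher; of the coagulation genes 4 are lower and 3 higher.

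C3, C2, C4b and Cfb lie on chromosome 17, the last 3 in the class III region of the major histocompatibility complex. Within 50 kb of a member lay 30 distinct protein-coding genes that are not members, of which 16 were tested, 6 were lower and 2 higher. Over all tested genes 38.9% were called, 20.1% lower and 18.8% higher. The 16 include C1rl, C1ra and C1rb near C1s1, complement genes reported above, of which C1rb was lower. Tnxb, an extracellular matrix gene 8565 bases from C4b, changed by -0.85 (SE 0.148, edgeR quasi-likelihood test, adjusted p = 0.000252), and Neu1, a lysosomal sialidase gene 32988 bases from C2, by -0.48 (adjusted p = 1.31e-05). Stk19, Skiv2l and Zbtb12, nearer to C2 than Neu1, were not called. Skiv2l and Zbtb12 were called lower with no count filter (-0.17 and -0.22), Skiv2l also with limma-voom (-0.16), and both without Luc siRNA replicate 1 (-0.21 and -0.27) or Crebl2 siRNA replicate 1 (-0.23 and -0.31). Stk19 was called higher without Crebl2 siRNA replicate 3 (0.20). Near C3, Gpr108 changed by -0.25 (adjusted p = 0.00353) and Trip10 was not called. On chromosome 3 both called neighbours of Cfi were higher, Gar1 by 0.36 (adjusted p = 4.93e-05) and Pla2g12a by 0.32 (adjusted p = 0.0037), each a larger estimate than that of Cfi. Casp6, at 26093 bases from Cfi, was not called, except without Luc siRNA replicate 1 (-0.22). Near Serping1, Ypel4 changed by -1.16 (adjusted p = 3.68e-06) and Gm19426 by -0.33 (adjusted p = 0.00747), while Ube2l6 was not called.

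The genes whose log2 CPM followed that of C3 most closely over the 6 libraries were Msln, the gene of mesothelin, Ajuba, a LIM domain protein gene, and Olfml3. Pearson's r was 0.9997 for Msln, 0.9984 for Ajuba and 0.9981 for Olfml3, as a description among 6142 genes with a mean of at least 10 CPM, of which 89 exceeded 0.99. With only 2 groups, such an r mostly reflects the difference between the groups and can hide its size. Msln averaged 16.3 CPM in Crebl2 siRNA cells and 67.7 CPM in Luc siRNA cells, whereas Ajuba averaged 294 CPM in Crebl2 siRNA cells and 345 CPM in Luc siRNA cells.

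The word GAAATGT was found in the annotated 3′ UTR of the counted transcript of 29.2% of 2181 lower, 11.9% of 1890 higher and 16.5% of 5787 uncalled genes, with no correction for UTR length, whose median was 1385, 986.5 and 995 bases in that order. Among the members the word was found in Masp1 (3′ UTR of 2965 bases) and in Cd55. It was not found in C3, C4b or C2, whose 3′ UTRs are short, at 43, 106 and 253 bases, nor in Cfi. Of the complement list, 1 of 10 lower, 0 of 4 higher and 0 of 8 uncalled genes searched held it. The sequences of the siRNAs are not given in the sources used here, so the word could not be matched to them. How the word was picked is not recorded, and a word picked for its frequency in the lower genes would show such shares by choice. The shares are therefore a description only, and the part of this word in any result was not tested.

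The Crebl2 siRNA library with the low mitochondrial share did not carry the results on the members. Without it the log2 fold change was -1.32 for C3, -1.09 for C2, -0.69 for C4b, -1.09 for Masp1 and 0.16 for Cfi, and all 5 remained called (edgeR quasi-likelihood test, adjusted p = 4.42e-09 for C3 to 0.0424 for Cfi).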

How the data were processed

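The authors deposited raw read counts per Ensembl transcript, 58611 rows for each of the 6 libraries, with no normalization. Per the labels' protocols, RNA was made into libraries with a stranded total RNA kit. Trim Galore, TopHat and HTSeq and the builds mm9 and GRCm38 appear in the submitters' processing notes with no version, role or setting, and use of strand in counting is not stated there. By identifier, 58264 rows matched GENCODE M21 (GRCm38) and 347, with at most 0.0497% of a library's counts, did not and stayed as features of their own. Rows were summed per gene.

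Genes were tested with edgeR 4.0.16 under R 4.3.3 (filterByExpr, TMM scaling, quasi-likelihood test, two-sided, Benjamini-Hochberg over 11616 genes, called under 0.05). CPM was computed from the deposited counts on TMM-scaled library sizes. SEs follow from each log2 fold change and its F statistic. Ratios of few counts have exact binomial 95% intervals, and these intervals and the limit of 3 counts cover counting error only. No pair of libraries of a group agreed within sampling noise (chi-square per degree of freedom 2.81 to 20.7).

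The members and lists were chosen with earlier results of these data known. Named genes are all members, Crebl2, every called gene of the wider list and up to 8 uncalled ones by mean CPM with at least 60 counts, up to 6 called genes by p of each other list, tested neighbours within 50 kb, and the 3 genes most like C3. Markers, lectins below the filter, C1q genes and gene models beside C2 were also named, after their values were seen. The same holds for Cebpa, Cebpd, Il6st, Socs3 and Stat3. Motifs were searched in RefSeq promoter windows (GRCm38.p6), which 3 of the 9 members and 44 of the 59 list genes have. One gene of the coagulation list is not reported here and was left out of that list's counts, not of the fit. The alternatives were 8 other settings and 6 fits that leave out 1 library each.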

Additional observations from a re-analysis of the deposited data

How the results depend on the processing

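C3, C2, C4b and Masp1 kept their direction and call in all 56 alternative fits of these genes, at log2 fold changes of -1.39 to -1.25 for C3, -1.19 to -1.04 for C2, -0.69 to -0.53 for C4b and -1.37 to -0.82 for Masp1, and the count of members called lower was 4 in each setting. Cfi kept its direction in 14 alternative fits and its call in 9. It was not called with no filter (0.13, adjusted p = 0.0671 by edgeR) or with the replicate block (0.13, adjusted p = 0.091), so that 0 members were called higher in both, against 1; without 1 library each, Cfi gave 0.11 to 0.16 and the count of members higher 0 to 1. The cause was not tested. The replicate numbers did not pair the libraries: deviations of same-numbered libraries correlated at -0.133, -0.044 and -0.085, no library correlated best with its own number, and the block gave 3983 calls, against 4518. With library size only as the scaling, 41.2% of calls were lower, against 51.7% with TMM (1920 lower and 2741 higher, against 2338 and 2180). The wider complement list had 9 to 10 genes lower and 3 to 4 higher over all settings. Of 642 alternative fits of 46 other named genes, 628 gave the same call and none reversed; Cd93 lost its call in 5, and Stk19, Skiv2l, Zbtb12 and Casp6 gained one in 9. Depth limits C1s1, Serping1 and Cd55, and bases shared between transcripts limit Cfb, C1s1, C2 and Serping1.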
